A study of Mus musculus with 18 samples.

Results

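The enzymes of folate and serine one-carbon metabolism were followed as a set in the ovaries of female offspring of mothers fed a high-methionine diet. The 9 members were taken by symbol, as Phgdh, Psat1, Psph, Shmt1, Shmt2, Mthfd1, Mthfd2, Mthfd1l and Tyms, and all 9 were found among the 30172 genes of the expression tables. The offspring (F1) were wild-type C57BL/6J females. Their mothers received either normal chow (F1-Control) or chow with 3% methionine (F1-HHcy), which induces hyperhomocysteinemia, from 4 weeks before mating by the labels, through gestation and lactation, and the pups themselves were not treated. The study's methods describe a longer feeding period before mating than the labels do. Whole ovaries were taken at postnatal day 3 (Pd3), 7 (Pd7) and 21 (Pd21), with 3 libraries of poly-A RNA for each diet and day, 18 in all. Pd3 and Pd7 form batch 1 of the labels and Pd21 forms batch 2, so day and batch cannot be told apart when Pd21 is set beside the earlier days. Whether a library holds the ovaries of 1 pup or of several, and which pups share a litter, is not given in the sources used here, so the p-values measure only the spread between these libraries.

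These enzymes form a short route from glucose to DNA. Phgdh, Psat1 and Psph make serine from a glycolytic intermediate in consecutive steps, and the serine hydroxymethyltransferases Shmt1 (cytosol) and Shmt2 (mitochondria) split serine into glycine and a one-carbon unit carried on folate. In mitochondria, Mthfd2 and Mthfd1l oxidise that unit and release it as formate. In the cytosol, Mthfd1 takes formate back onto folate, and Tyms spends the unit to make thymidylate, which is needed for DNA synthesis in dividing cells such as the granulosa cells of growing follicles. The same folate pool gives the methyl group that turns homocysteine back into methionine, which places the pathway beside the metabolite that the diet raises.

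All 9 members were expressed at 1 FPKM (fragments per kilobase of gene length, scaled to the fragments of the library) or more in 18 of 18 libraries, and the fewest fragments behind any single value was 291, for Mthfd2. Averaged over the 18 libraries, the level per length was highest for Phgdh (59.7 FPKM), followed by Shmt2 (24.1 FPKM), Psat1 (22.8 FPKM), Mthfd1 (13.8 FPKM), Shmt1 (13.0 FPKM), Tyms (11.0 FPKM), Mthfd2 (9.88 FPKM), Mthfd1l (5.39 FPKM) and Psph (3.44 FPKM). The lowest Phgdh value (39.5 FPKM) lay above the highest Shmt2 value (37.7 FPKM), whereas the ranges of every other pair of neighbours in this order overlapped. Thus the first enzyme of serine synthesis had by far more transcript per length than the last. The gene lengths implied by the deposited values ran from 1871 bases for Phgdh to 5937 bases for Tyms, and levels between genes rest on them. Over the 18 libraries Mthfd2 varied most, with its highest FPKM 4.67 times its lowest, and Psph least, at 1.44 times.

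**Figure D1:**
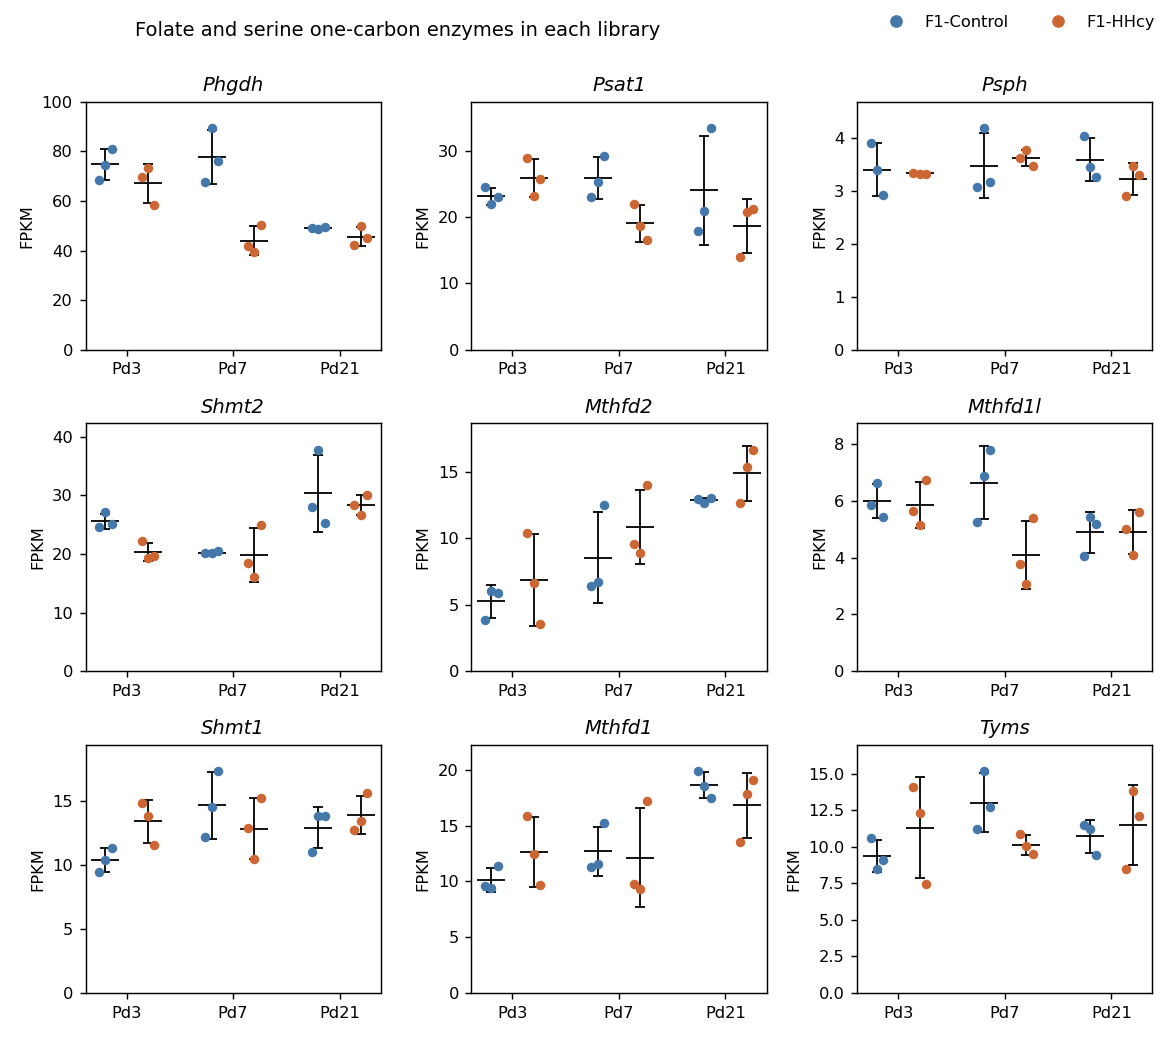
FPKM of the 9 members (y axis, from 0) in every library at Pd3, Pd7 and Pd21; points are libraries, the horizontal line is the group mean and the bar is ± SD (n = 3). Phgdh in the F1-HHcy libraries of Pd7 (39.5 to 50.5 FPKM) sits below every F1-Control library of that day (67.8 to 89.3 FPKM).

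The libraries held 33630641 to 39399281 fragments assigned to genes, and the lowest correlation of a library with another of its group was between 0.944 and 0.988. The 2 libraries farthest apart within a group were F1-HHcy Pd3 replicates 1 and 3 (r = 0.944). None of the 14 oocyte markers used to check the tissue (Ddx4, Zp3 and Gdf9 among them) was below 1 FPKM in all libraries of any group. The summed levels of several marker lists differed between the diets. At Pd3 the oocyte sum was 2061 to 2699 FPKM in F1-HHcy against 1221 to 1720 FPKM in F1-Control, the sum of 7 stromal markers was 1355 to 1643 FPKM against 747 to 1010 FPKM, and that of 7 erythroid markers was 784 to 1108 FPKM against 3941 to 11288 FPKM. At Pd7 the oocyte sum had the opposite order, 1250 to 2078 FPKM in F1-HHcy against 2179 to 3550 FPKM in F1-Control. The single oocyte markers did not all follow their sum. By log2 difference between the diets, 8 of 14 were above 0 and 6 below at Pd3, and 3 were above and 11 below at Pd7. The sum of 7 theca and steroidogenic markers at Pd7 was 1178 to 1225 FPKM against 241 to 476 FPKM, and that of 10 granulosa markers was 608 to 899 FPKM against 373 to 600 FPKM. By log2 difference, all 7 theca and steroidogenic markers were above 0, whereas 7 of the 10 granulosa markers were above 0 and 3 below. Also at Pd7, the erythroid sum was 287 to 502 FPKM in F1-HHcy against 925 to 5791 FPKM in F1-Control. The sum of 10 markers of multiciliated and oviduct epithelium was 97.6 to 116 FPKM against 158 to 242 FPKM. That of 7 macrophage markers was 33.4 to 39.4 FPKM against 41.9 to 64.0 FPKM. By log2 difference, 5 of 5 tested erythroid, 5 of 7 epithelial and 6 of 6 macrophage markers were below 0. The part of these differences in cell markers in any result below was not tested. In whole ovaries, fewer cells of a type and less RNA per cell cannot be told apart.

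The first comparison asked whether maternal HHcy changed these transcripts at Pd7. Phgdh, which commits 3-phosphoglycerate to serine synthesis, was the only member that passed an adjusted p under 0.05. It was lower in the F1-HHcy group. Its levels were 42.0, 39.5 and 50.5 FPKM in the F1-HHcy libraries and 67.8, 89.3 and 76.1 FPKM in the F1-Control libraries. Every F1-HHcy library was below every F1-Control library. The group means were 44.0 ± 5.78 and 77.7 ± 10.8 FPKM (SD, n = 3 each), and the ratio of the means was 0.566. On the log2(FPKM + 1) scale the difference was -0.81 (SE 0.16, limma adjusted p = 0.0134), the smallest p among the members and rank 513 among the 13299 genes tested. Of these genes, 5.98% were lower and 11.9% changed in either direction by the same rule (adjusted p under 0.05). One of 9 members is therefore close to the share of all genes. The call was lost with no filter on low values (adjusted p = 0.0688) and with F1-HHcy replicate 1 or 2 left out (adjusted p = 0.0656 and 0.0631), although the difference stayed between -0.91 and -0.70 with any 1 of the 6 libraries left out.

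Psat1, the aminotransferase of the second step, had 22.0, 18.6 and 16.5 FPKM in F1-HHcy and 23.0, 25.4 and 29.2 FPKM in F1-Control at Pd7. The groups did not overlap, but the difference of -0.42 (SE 0.15) did not pass (adjusted p = 0.0986). Psph, the phosphatase of the last step, had 3.61, 3.77 and 3.47 FPKM against 3.08, 4.18 and 3.16 FPKM (log2 difference 0.05, adjusted p = 0.837), with overlapping groups. The log2 differences of the 3 enzymes of the serine route thus ran from -0.81 to 0.05. The ratio of Phgdh to Psph within a library was 10.5 to 14.5 in F1-HHcy and 21.4 to 24.0 in F1-Control. That of Phgdh to Psat1 was 1.91 to 3.06 in F1-HHcy and 2.61 to 3.52 in F1-Control, with overlap. The summed FPKM of the 3 genes was 61.9 to 70.5 in F1-HHcy and 93.9 to 119 in F1-Control. Phgdh, the member called above, is part of each of these ratios and sums, which were not tested.

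Among the mitochondrial enzymes at Pd7, Mthfd1l, the formate-releasing synthetase, had 3.79, 3.06 and 5.40 FPKM in F1-HHcy and 5.25, 6.85 and 7.78 FPKM in F1-Control. F1-HHcy replicate 3 overlapped the lowest F1-Control library, and the difference of -0.60 (SE 0.20) did not pass (adjusted p = 0.0823). It passed when all 18 libraries shared 1 estimate of the spread (adjusted p = 0.0383). By the criterion of an unadjusted p under 0.05 with a log2 difference above 0.58 in size, Mthfd1l and Phgdh were both lower, as were 7.35% of all genes. Mthfd2, which works immediately before it, had 9.61, 8.90 and 14.1 FPKM against 6.43, 6.69 and 12.5 FPKM (log2 difference 0.34, SE 0.25, adjusted p = 0.365). The Mthfd2 to Mthfd1l ratio was 2.54, 2.91 and 2.60 in F1-HHcy and 1.22, 0.98 and 1.61 in F1-Control, with no overlap and no test. How often ratios of other gene pairs do not overlap was not determined. Shmt2 had 18.5, 16.1 and 24.9 FPKM in F1-HHcy against 20.1, 20.1 and 20.5 FPKM in F1-Control, a group whose SD was only 0.205 FPKM.

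Of the cytosolic enzymes at Pd7, Tyms had 10.9, 10.1 and 9.47 FPKM in F1-HHcy and 11.2, 15.1 and 12.7 FPKM in F1-Control. The groups did not overlap, by a margin of less than 1 FPKM, and the difference of -0.32 (SE 0.15) did not pass (adjusted p = 0.173). Shmt1 and Mthfd1 overlapped between the groups, with log2 differences of -0.18 and -0.10. In F1-HHcy replicate 3 the levels of Shmt1, Shmt2, Mthfd1, Mthfd2, Mthfd1l and Phgdh were the highest of their group, whereas those of Tyms, Psat1 and Psph were the lowest. Taken over the set, 7 of 9 members were below 0 with a median log2 difference of -0.18, against 0.00 over all genes tested. Non-overlapping groups, seen for Phgdh, Psat1 and Tyms, were found in 39.0% of all genes on this day.

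**Figure D2:**
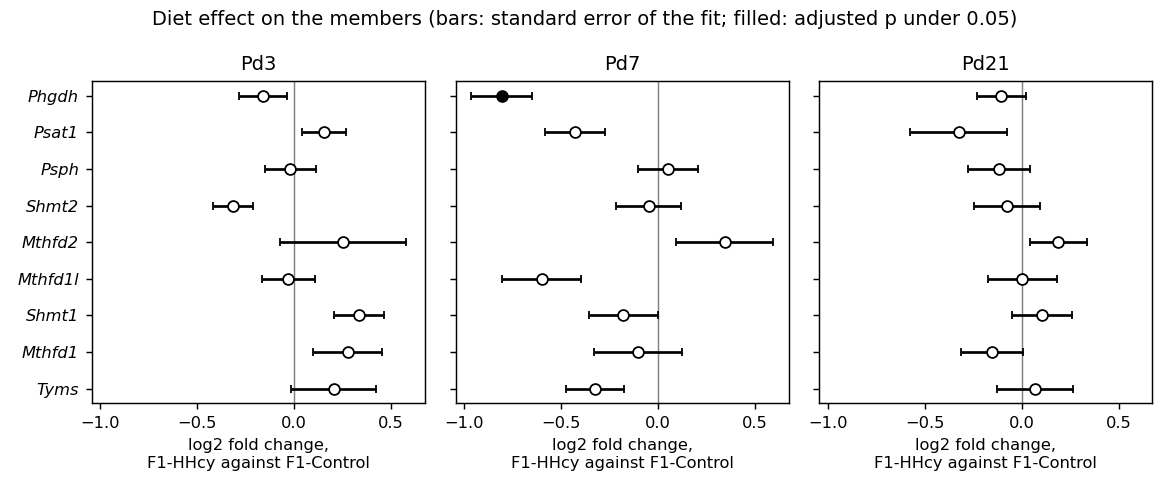
Difference between F1-HHcy and F1-Control on the log2(FPKM + 1) scale (x axis) for each member at Pd3, Pd7 and Pd21, with the standard error of the limma fit; filled points have an adjusted p under 0.05. Phgdh at Pd7 (-0.81) is the only filled point among 27.

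RefSeq lists a promoter window for each of the 9 members on GRCm38.p6, the build of the files. The 250 bases before the start site of the 3 members whose groups did not overlap at Pd7 are printed below 5′ to 3′, on the strand of the gene, to show the sequence that precedes the transcripts the comparison turns on. Capitals mark matches, on either strand, to the motifs searched: the ATF4 element TGATGNAA, the E-box CACGTG, the GC box GGGCGG, the E2F motif TTTGGCGC and its second form TTTCCCGC, the CCAAT box and the TATA box TATAAA. The Phgdh gene itself spans chr3:98313171-98339969. The printed window of Phgdh is chr3:98339970-98340219, that of Psat1 is chr19:15925060-15925309 (the outer of its listed starts) and that of Tyms is chr5:30073626-30073875, all on the minus strand.
Phgdh: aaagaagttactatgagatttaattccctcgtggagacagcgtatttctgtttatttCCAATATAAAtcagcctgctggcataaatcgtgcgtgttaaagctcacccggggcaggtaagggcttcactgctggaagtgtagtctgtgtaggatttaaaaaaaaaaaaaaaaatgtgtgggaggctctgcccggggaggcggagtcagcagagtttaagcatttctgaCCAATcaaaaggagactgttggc
Psat1: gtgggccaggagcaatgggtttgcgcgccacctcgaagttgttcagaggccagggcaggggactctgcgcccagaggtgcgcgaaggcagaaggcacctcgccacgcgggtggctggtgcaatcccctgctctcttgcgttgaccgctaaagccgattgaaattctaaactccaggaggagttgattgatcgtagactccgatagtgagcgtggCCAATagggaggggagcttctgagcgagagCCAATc
Tyms: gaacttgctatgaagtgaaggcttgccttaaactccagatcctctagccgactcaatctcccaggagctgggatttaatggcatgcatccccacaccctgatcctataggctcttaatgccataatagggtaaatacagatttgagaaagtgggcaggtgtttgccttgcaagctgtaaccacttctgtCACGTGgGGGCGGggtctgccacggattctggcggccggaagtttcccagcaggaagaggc

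Phgdh and Psat1 each held 2 CCAAT boxes, a motif found in 33.8% of 32851 promoter windows of the same length, and the nearer one lay 23 to 19 bases before the Phgdh start and 6 to 2 bases before that of Psat1. The distal CCAAT box of Phgdh shares 1 base with a TATA box match (12.4% of windows) far from the start site. Tyms held the only E-box of the members (6.02% of windows), 61 to 56 bases before the start and next to a GC box (32.7% of windows). ATF4, a factor known to drive serine synthesis genes when amino acids are short, has an element of the searched form in 3.45% of windows, and none of the members' windows held it. The E2F forms (0.417% and 0.895% of windows) were not found in the members' windows either. These are matches of letters only.

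At Pd3 the question was the same, and no member passed (0 of 9 by limma, against 3.07% of 13277 genes; 2 of 9 had an unadjusted p under 0.05, and limma-voom also called 0). The members with the smallest p were the pair of isozymes that split serine, which differed in opposite directions. Cytosolic Shmt1 had 14.8, 13.8 and 11.6 FPKM in F1-HHcy and 9.42, 10.4 and 11.3 FPKM in F1-Control, a log2 difference of 0.34 (SE 0.13, limma adjusted p = 0.185). Mitochondrial Shmt2 had 22.2, 19.3 and 19.6 FPKM against 24.5, 27.1 and 25.1 FPKM, a log2 difference of -0.32 (SE 0.10, adjusted p = 0.133). Neither pair of groups overlapped, as was the case for 27.9% of all genes on this day.

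Within each library of Pd3, Shmt2 exceeded Shmt1 by a factor of 1.50, 1.40 and 1.70 in F1-HHcy and of 2.60, 2.61 and 2.22 in F1-Control. The lowest F1-Control ratio was thus above the highest F1-HHcy ratio. The summed mitochondrial enzymes (Shmt2, Mthfd2, Mthfd1l) over the summed cytosolic ones (Shmt1, Mthfd1) gave 1.19 to 1.41 in F1-HHcy and 1.61 to 2.01 in F1-Control, again with no overlap. Shmt2 and Shmt1 are themselves part of these sums. The ratios of Mthfd1l and of Mthfd2 to Mthfd1 overlapped at Pd3. They were 0.36 to 0.70 and 0.37 to 0.66 in F1-HHcy, against 0.48 to 0.70 and 0.40 to 0.64 in F1-Control. At Pd7 the Shmt2 to Shmt1 ratio was 1.44 to 1.64 in F1-HHcy and 1.19 to 1.66 in F1-Control. At Pd21 it was 1.92 to 2.23 and 1.83 to 2.73, so that for this ratio the groups overlapped on both later days. The ratio of the summed enzymes had the opposite order at Pd7, without overlap. It was 1.370 to 1.421 in F1-HHcy and 1.254 to 1.359 in F1-Control. At Pd21 it was 1.48 to 1.75 and 1.39 to 1.72, with overlap. The ratios between members, on all 3 days, were chosen with earlier results known and were not tested. No share of other gene pairs without overlap stands beside them.

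**Figure D3:**
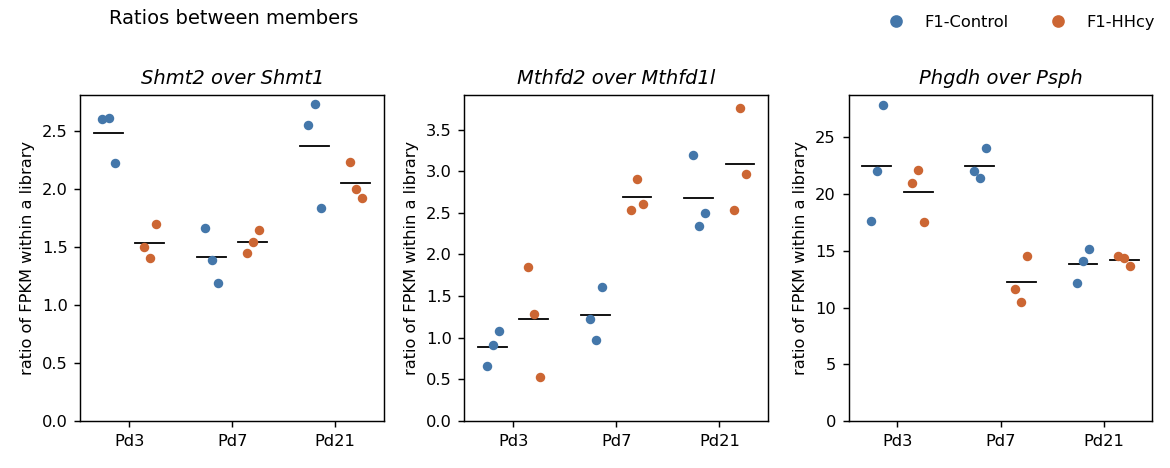
Ratio of FPKM between members within each library (y axis, from 0) at Pd3, Pd7 and Pd21 for Shmt2 over Shmt1, Mthfd2 over Mthfd1l and Phgdh over Psph; points are libraries and lines are group means (n = 3). The groups do not overlap for Shmt2 over Shmt1 at Pd3 (1.40 to 1.70 in F1-HHcy, 2.22 to 2.61 in F1-Control), nor for the other ratios at Pd7.

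The other members overlapped between the diets at Pd3. Mthfd2 was the most scattered, with 10.4, 6.61 and 3.57 FPKM in F1-HHcy and 3.87, 6.06 and 5.86 FPKM in F1-Control. In the same F1-HHcy libraries Tyms was 14.1, 12.3 and 7.43 FPKM, Mthfd1 15.9, 12.4 and 9.63 FPKM and Shmt1 as above, so that replicate 3 was the lowest of its group for all 4 genes. Without that library, Shmt1 (log2 difference 0.43, adjusted p = 0.0368) and Tyms (0.46, adjusted p = 0.0427) passed as higher in F1-HHcy. Replicates 1 and 3 stood apart from each other, which marks neither as the odd one. With any 1 of the 6 libraries left out, the difference was 0.26 to 0.43 for Shmt1 and 0.035 to 0.46 for Tyms. The limma adjusted p was then up to 0.489 and 0.958. Phgdh at Pd3 was 69.8, 73.4 and 58.2 FPKM against 68.7, 74.7 and 81.1 FPKM, a log2 difference of -0.16 (adjusted p = 0.487). Psph was 3.32 to 3.33 FPKM in F1-HHcy and 2.91 to 3.90 FPKM in F1-Control.

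At Pd21 no member passed (0 of 9 by limma and by limma-voom, and 0 of 9 at an unadjusted p under 0.05), on a day when 2.23% of 13350 genes did. Phgdh was 42.2, 49.7 and 45.0 FPKM in F1-HHcy and 49.0, 48.8 and 49.4 FPKM in F1-Control, where the SD was only 0.282 FPKM. The log2 difference was -0.11 (SE 0.13). The difference farthest from 0 was that of Psat1, with 14.0, 20.7 and 21.2 FPKM against 17.8, 21.0 and 33.4 FPKM (-0.33, SE 0.25), and it was -0.07 without F1-Control replicate 3. Mthfd2 was 12.6 to 16.7 FPKM against 12.7 to 13.0 FPKM (0.19, SE 0.15), and the Mthfd2 to Mthfd1 ratio was 0.86 to 0.93 in F1-HHcy and 0.65 to 0.74 in F1-Control, without overlap and without a test. No member had groups that did not overlap, against 10.5% of all genes.

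A further fit of the 18 libraries asked whether the size of the diet effect depended on the day. For Phgdh the effect at Pd21 was 0.70 above that at Pd7 (SE 0.18, limma adjusted p = 0.0425), the only member to pass (1 of 9, against 3.89% of 14607 genes in either direction and 0.986% in this one). The call was lost with limma-voom (adjusted p = 0.0693), with median-ratio scaling (adjusted p = 0.0523), with the replicate number as a block (adjusted p = 0.131) and with 12 of the 18 libraries left out in turn, the adjusted p then being up to 0.122. Pd21 is a separate batch, but each diet effect was taken within a day. Mthfd1l had a difference of 0.60 between the same days (SE 0.25, unadjusted p = 0.0296, adjusted p = 0.205), and with Phgdh it met the unadjusted criterion, as did 5.55% of genes in this direction. Between Pd3 and Pd7, the difference of the diet effect was -0.65 for Phgdh (SE 0.18, adjusted p = 0.138), -0.57 for Mthfd1l and -0.51 for Shmt1 (adjusted p = 0.339 and 0.329). None passed (0 of 9 by limma and limma-voom, 3 of 9 at an unadjusted p under 0.05), against 0.411% of genes. By the unadjusted criterion only Phgdh counted as lower, with 5.28% of genes. Between Pd3 and Pd21 no member passed by either tool or had an unadjusted p under 0.05, against 4.59% of genes.

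The course from Pd3 to Pd7 could be followed within batch 1 in each diet. These contrasts share their libraries with the diet comparisons above and are given beside them only as values. In F1-Control, 8 of 9 members were above 0, with a median log2 change of 0.15 against -0.07 over all genes, but none passed (0 of 9 by limma and limma-voom, 4 of 9 at an unadjusted p under 0.05, against 14.5% of 13336 genes). Shmt1 went from 10.4 ± 0.939 to 14.6 ± 2.58 FPKM (SD, n = 3 each; 0.45, SE 0.15, limma adjusted p = 0.0821). With the replicate number as a block its adjusted p was 0.0469, past the threshold, and without F1-Control Pd7 replicate 1 it was 0.0408. Tyms had a change of 0.43 (adjusted p = 0.0893), Mthfd2 one of 0.57 (adjusted p = 0.156) and Shmt2 one of -0.32 (adjusted p = 0.0843), the only member below 0. Phgdh was 74.8 ± 6.23 and 77.7 ± 10.8 FPKM on these days.

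In F1-HHcy, 7 of 9 members were below 0 from Pd3 to Pd7, with a median of -0.08 against -0.03 over all genes. None passed (0 of 9 by limma and limma-voom, 3 of 9 at an unadjusted p under 0.05), and neither did any of the 13257 genes (0.0% by limma, 0 by limma-voom, 3119 at an unadjusted p under 0.05). Phgdh had 67.1 ± 7.95 FPKM at Pd3 and 44.0 ± 5.78 FPKM at Pd7 (log2 change -0.60, SE 0.14, adjusted p = 0.0989). With the spread estimated from all 18 libraries this change passed (adjusted p = 0.0203), and it also met the unadjusted criterion, as did the falls of 5.36% of genes. Psat1 (-0.43, adjusted p = 0.143) and Mthfd1l (-0.45, adjusted p = 0.209) were the other members with an unadjusted p under 0.05.

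The neighbours of these enzymes in the pathway were examined as lists, in which limma and limma-voom called the same genes for diet on each day. At Pd7, 3 of the 7 genes of deoxynucleotide supply fell in F1-HHcy, beside 5.98% of all genes. They were the ribonucleotide reductase subunits Rrm1 (-0.62, adjusted p = 0.0241) and Rrm2 (-0.69, adjusted p = 0.0387) and thymidine kinase Tk1 (-0.60, adjusted p = 0.0269), which salvages the nucleoside whose nucleotide Tyms makes. Rrm1 had 35.1 to 36.9 FPKM in F1-HHcy and 49.9 to 65.5 FPKM in F1-Control. The list median was -0.56, with 6 of 7 genes below 0. Of the 22 genes of S phase and mitosis, the replication factor Gins2 (-0.86, adjusted p = 0.0086) and the mitotic survivin Birc5 (-0.74, adjusted p = 0.0153) fell and none rose, 2 of 22 beside the 5.98% of all genes that were lower on this day, which is a share near the background. The median was -0.37, with 20 of 22 below 0, against a median of 0.00 over all genes. The oocyte, theca and other marker sums given above moved on the same day, and their part in these values was not tested. At Pd3 none of either list passed by either tool (1 of 7 and 0 of 22 at an unadjusted p under 0.05), with medians of -0.03 and 0.04. At Pd21 none passed either (0 of 7 and 0 of 22), with medians of 0.11 and 0.08.

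Of the serine list (transport, racemisation, breakdown and use), 11 of 12 genes were tested at Pd7. Cbs, which condenses serine with homocysteine to cystathionine, rose by 2.82 (adjusted p = 0.0056), with 10.2 to 13.1 FPKM in F1-HHcy and 0.06 to 3.29 FPKM in F1-Control. Slc1a4, a carrier of serine and other neutral amino acids, fell (-0.83, adjusted p = 0.0232), with 2.54 to 3.11 FPKM against 4.47 to 7.69 FPKM. The other 9 did not pass, and the list median was 0.04. These 2 of 11 stand beside the 11.9% of all genes that changed in either direction on this day. At Pd21 the carrier Slc1a5 fell (-1.52, adjusted p = 0.016), from 15.3 to 27.3 FPKM in F1-Control to 4.49 to 6.93 FPKM in F1-HHcy. It was 1 of 11 genes tested, beside 2.23% of all genes that changed in either direction. On the same day the sum of 10 markers of multiciliated and oviduct epithelium was 114 to 165 FPKM in F1-HHcy against 254 to 732 FPKM in F1-Control, with 5 of its 9 tested genes passing as lower, and its part in the Slc1a5 value was not tested. Cbs at Pd21 had a difference of -1.29 that did not pass (adjusted p = 0.403). At Pd3 none of 10 passed by either tool (3 at an unadjusted p under 0.05).

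Folate handling itself gave no call on any day. At Pd7 none of the 8 tested interconversion genes passed by either tool (3 at an unadjusted p under 0.05). None of the 6 uptake and retention genes, 3 glycine cleavage genes, 12 purine synthesis genes and 2 homocysteine remethylation genes passed by limma or limma-voom (0, 1, 1 and 1 at an unadjusted p under 0.05). The nearest was Pfas of purine synthesis (0.89, adjusted p = 0.0559). Of the 10 genes of the ATF4 axis none passed by either tool (4 at an unadjusted p under 0.05), with a median of 0.02, and Ddit4 came nearest (-0.51, adjusted p = 0.053). Atf4 transcript itself was 85.6 ± 8.04 FPKM in F1-HHcy and 85.8 ± 1.6 FPKM in F1-Control.

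**Figure D4:**
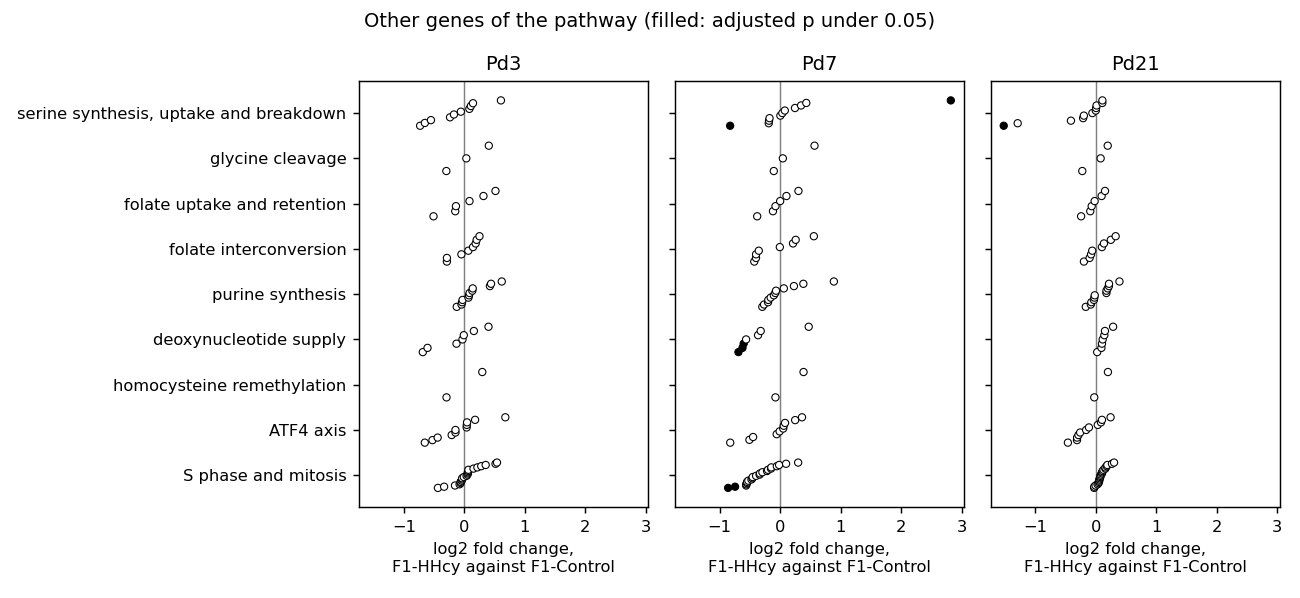
Difference between F1-HHcy and F1-Control on the log2(FPKM + 1) scale (x axis) for the other genes of the pathway by list (y axis) at Pd3, Pd7 and Pd21; each point is a gene and filled points have an adjusted p under 0.05. At Pd7 the filled points are Cbs (2.82) and Slc1a4 in the serine list, 3 deoxynucleotide genes and 2 genes of S phase and mitosis; at Pd21 the filled point is Slc1a5 (-1.52).

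The genes whose levels followed each member most closely were ranked by the lowest of the Pearson correlations within Pd3, Pd7 and Pd21, over 6 libraries a day and 12297 genes. These libraries share depth, diet and cell makeup, and the values are a description. Tyms had the closest companions, Ppil3 (lowest r = 0.960), Grpel1 (0.939) and Glod4 (0.933). Mthfd1 was followed by 3110082I17Rik (0.918) and by Atic (0.915), which uses a folate one-carbon unit in purine synthesis, then by Nop16 (0.894). Mthfd2 was followed by Krr1 (0.894) and Mthfd1l by Taf5l (0.848). For Phgdh the closest were Ralb (0.867), Vcp (0.852) and Galk1 (0.835), for Shmt2 Ybx3 (0.805), for Psph Mgst1 (0.801), for Shmt1 Sephs1 (0.777) and for Psat1 Pdha1 (0.734). No member was among the 3 genes closest to another member, and the closest pair within the set was Shmt1 and Mthfd2 (lowest r = 0.530).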

How the data were processed

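Total RNA of whole ovaries was made into stranded poly-A libraries. The authors deposited 1 normalised value per gene and library, read here as FPKM because 1 length per gene turns the values of all libraries into whole fragments. The submitters' processing notes name FastQC 0.11.9, Trimmomatic 0.39, STAR 2.7.9a, featureCounts 2.0.1, Subread and DESeq2 1.36.0 on GRCm38/mm10, with no role or order. Whether fragments shared with a near-identical copy were counted is not given in the sources used here, and RefSeq lists a pseudogene of Phgdh and of Tyms.

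Genes with at least 1 FPKM in 3 libraries of a fit were tested with limma 3.58.1 (R 4.3.3, trend) on log2(FPKM + 1), which understates changes of low genes, with Benjamini-Hochberg adjustment over all genes tested and a threshold of 0.05. Each day was fitted on its 6 libraries. Differences between days were fitted on all 18. Fragments were recovered from the low values, to a tolerance of 0.004, for 27291 of 27294 genes above 0 in 3 libraries. They gave the depth and a limma-voom fit, which called 304, 1374 and 259 genes for diet at Pd3, Pd7 and Pd21. The scripts were tested on simulated data. Members and lists were chosen with earlier results of these data known. All 9 members were named. By rule, up to 3 passing genes with the smallest p were picked per pathway list and comparison (or the nearest gene where none passed). The 3 genes most like each member were picked as well. Only part of these picks is given in the text, and those of the pathway lists for comparisons between days are left out. Atf4 and Cbs at Pd21 were named after their values were seen. A result the rule would name in the interconversion list is not reported here.

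Replicate numbers were compared as possible pairs. Same-numbered libraries of F1-Control at Pd3 and Pd7 deviated together (r = 0.13 to 0.29), which was seen in the data and is not given by the labels. The main fits did not pair them. Replicate number entered as a block only as an alternative setting. Between diets (r = -0.34 to 0.09) and in F1-HHcy (r = -0.02 to 0.12) the libraries shared only a number.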

Additional observations from a re-analysis of the deposited data

Results flagged for a closer look

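The difference of the Phgdh diet effect between Pd7 and Pd21 was singled out because the effects of the same contrast on 2 days differed by a test of the difference itself. The log2 difference between F1-HHcy and F1-Control was -0.81 at Pd7 and -0.11 at Pd21, a difference of 0.70 (SE 0.18, limma adjusted p = 0.0425, range over the alternatives 0.023 to 0.131). All 3 F1-HHcy libraries lay below all 3 F1-Control libraries at Pd7, and the groups overlapped at Pd21.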

How the results depend on the processing

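Counts of members passing depended on the setting in several comparisons, and the cause was not tested. For the diet effect at Pd7, where 1 member (Phgdh) was lower, the count was 0 with no filter on low values, 2 with the criterion of an unadjusted p under 0.05 and a log2 difference above 0.58, and 2 with all 18 libraries in 1 model (Mthfd1l added in both), and 0 to 1 with 1 library left out. For the difference between Pd7 and Pd21 it was 0 with limma-voom, 0 with median-ratio scaling, 2 with the unadjusted criterion and 0 to 1 with 1 library left out, against 1. The unadjusted criterion gave 1 lower member for the difference between Pd3 and Pd7 and 1 for Pd3 to Pd7 in F1-HHcy, where the model of 18 libraries also gave 1, each against 0. Leaving out 1 library gave 0 to 2 higher members at Pd3 and 0 to 1 for Pd3 to Pd7 in F1-Control. With the replicate block the count was 0 against 1 for the difference between Pd7 and Pd21 (Phgdh adjusted p = 0.131) and 1 against 0 for Pd3 to Pd7 in F1-Control (Shmt1); it changed no other call.

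Signs of members that did not pass turned when 1 library was left out. At Pd3 the ranges were -0.067 to 0.60 for Mthfd2, -0.12 to 0.043 for Mthfd1l and -0.10 to 0.063 for Psph. At Pd7 they were -0.36 to 0.046 for Mthfd1, -0.22 to 0.085 for Shmt2 and -0.0082 to 0.16 for Psph. At Pd21 they were -0.10 to 0.10 for Mthfd1l, -0.070 to 0.25 for Tyms and -0.19 to 0.086 for Shmt2. Of the values for single members under the other settings, 299 of 310 kept direction and side of the threshold, 4 lost it and 7 gained it, with none reversed. With 3 libraries a group, differences as small as those of most members could not be told from the spread.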

Other observations

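Some levels in F1-HHcy lay near those of a later F1-Control day, and others did not. Such values differ in both diet and day, and were not tested. At Pd3 in F1-HHcy, Shmt2 was 19.3 to 22.2 FPKM and Shmt1 11.6 to 14.8 FPKM, beside 20.1 to 20.5 and 12.1 to 17.3 FPKM in F1-Control at Pd7, and the Shmt2 to Shmt1 ratio was 1.40 to 1.70 beside 1.19 to 1.66. At Pd7 in F1-HHcy, Phgdh was 39.5 to 50.5 FPKM beside 48.8 to 49.4 FPKM in F1-Control at Pd21. The Mthfd2 to Mthfd1l ratio was 2.54 to 2.91 beside 2.34 to 3.20, and the Phgdh to Psph ratio 10.5 to 14.5 beside 12.1 to 15.2. Between the same groups, other values did not overlap. Shmt2 was 16.1 to 24.9 FPKM in F1-HHcy at Pd7 beside 25.3 to 37.7 FPKM in F1-Control at Pd21. Mthfd1 was 9.30 to 17.2 FPKM beside 17.5 to 19.9 FPKM, and the Shmt2 to Shmt1 ratio 1.44 to 1.64 beside 1.83 to 2.73. The F1-Control medians were between 21.0 and 25.4 FPKM for Psat1 and between 3.16 and 3.46 FPKM for Psph over the 3 days.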
